A study of Homo sapiens with 3 samples.

Results

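Olfactory receptor genes encode the odorant-binding receptors of the nose, and chromosome 11 holds the largest share of them in the human genome, in dense arrays along both arms. The genes described here are the protein-coding genes of chromosome 11 whose symbol is OR followed by a number, letters and a number, as in OR5A1. The rule found 171 genes, of 390 such genes on all chromosomes and of 20056 protein-coding genes in the RefSeq annotation of GRCh38.p14. Of the 171, 3 genes (OR8U8, OR8U9 and OR9G9) are listed out of positional order after the last gene of the chromosome and were not placed, so the values below are for 168 genes.

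The loops come from Hi-C, which joins DNA sites that lie close together in fixed nuclei and counts the joined pairs, in HCT116 human colorectal carcinoma cells. There were 3 groups of 1 library each, all in the p53-/- background: a clone with a CRISPR/Cas9 ORC2 deletion (ORC2 deletion), cells in which ORC2 was put back from the vector pLHCXORC2 and cloned (ORC2 rescue), and the parental HCT116 p53-/- cells (wild-type). ORC2 belongs to the origin recognition complex, the protein assembly that binds future replication origins. The deletion line and the rescue line are each clonal, so a difference between clones and an effect of ORC2 cannot be told apart.

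An olfactory receptor is a G protein-coupled receptor of the sensory neuron membrane. Each olfactory neuron expresses a single receptor gene and keeps the others silent, and in cells outside the nose most of these genes lie in inactive chromatin. The coding sequence usually sits in a single exon, so the genes are short. Class I receptors (families numbered 51 and above) form a single array on the short arm of chromosome 11, and class II receptors are spread over several arrays.

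The measurement is a list of loops deposited by the authors, each with a left position, a right position and a class word, which is conserved_gain, conserved_lost or not_conserved. The first is called gained here, the second lost and the third not conserved. What conserved refers to is not given in the sources used here, so a loop that is not conserved may itself have changed. Positions refer to hg38, as the list's name states. Which samples a gain or a loss compares is not given in the sources used here, so no class is tied to ORC2 deletion, ORC2 rescue or wild-type. The list carries no contact counts, so depth is unknown. With 1 library in each group there is no replicate error, and the conditions could not be tested against each other. By its name the list holds changed loops, so a gene with no listed loop is not shown to lack loops. The compartment scores that accompany the list are in columns named S1, S2 and S3, which match no sample label, and were not used.

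A receptor was taken to be at a loop end if its body overlapped the 5 kb inward from a listed position. Genes less than 1 Mb from the next receptor were taken as a cluster, which gave 7 clusters. Cluster 1, from OR52B4 to OR10A3 (chromosome 11, 4367263 to 7941708), held 67 receptors, of which 55 were all the class I receptors of the chromosome. Cluster 2, from OR4B1 to OR4A47 (48216810 to 48489722), held 7 receptors and cluster 3, OR4C13 and OR4C12 (49952391 to 49982535), held 2. Cluster 4, from OR4C46 to OR5AK2 (54603069 to 56989843), held 48 receptors, and cluster 5, from OR9Q1 to OR10V1 (58023881 to 59713845), held 21. Cluster 6 was OR2AT4 alone (75081753 to 75096890), and cluster 7, from OR6X1 to OR8A1 (123753580 to 124571374), held 22.

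Hi-C chromatin was cut with DpnII, which cuts at GATC, so a site has to lie near a cut to be seen. In the RefSeq promoter windows (250 bases before to 50 after the gene start, GRCh38.p14), 135 of the 168 receptors had a match. The 4 stretches below come from the windows of receptors with a listed loop end on the window itself. They show the first GATC of each window, in capitals, on the strand of the gene.

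OR4C3 (chr11:48324672-48324701, plus strand): ctatgttgaaagtGATCagagatttactcc

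OR8A1 (chr11:124569867-124569896, plus strand): gtgcatggtaaaaGATCcagaccttggcct

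OR52K2 (chr11:4449133-4449162, plus strand): gcttaagggcaagGATCatgcataatattt

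OR9G4 (chr11:56748892-56748921, minus strand): atattatgagttaGATCcattaagagagtc

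GATC, which reads the same on both strands, was found in 52 of the 135 receptor windows (38.5%, 95% Wilson interval 30.7 to 46.9%), against 289 of 818 windows of other genes of chromosome 11 (35.3%, 32.1 to 38.7%) and 39.7% of the 15843 windows of all protein-coding genes in the table. Among receptors the share was 37.5% of 24 windows with a listed loop end on the gene and 38.7% of 111 windows without one. GATC outside these windows was not counted, so the shares do not show whether a 5 kb loop end could be seen. The windows differed in base composition. Their median G and C content was 37.0% (quartiles 32.8 and 42.0%) at receptors, against 62.7% (55.7 and 70.0%) at other genes of chromosome 11, and 40.0% at receptors with a listed end against 36.7% at receptors without one. A listed end covered the window in 19 of 135 receptors (14.1%), against 298 of 818 other genes (36.4%). Whether base composition, or reads that match several near-identical receptor copies, had a part in the loop counts below was not tested. Receptor copies can share sequence, so the counts of single receptors are uncertain to that extent.

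Few of the receptors were at the end of a listed loop. A listed loop ended on 27 of the 168 receptors (16.1%, Wilson interval 11.3 to 22.4%), against 648 of 1129 other protein-coding genes of chromosome 11 (57.4%, 54.5 to 60.3%). Receptors made up 13% of the placed protein-coding genes of the chromosome, and 130 of its 15044 listed loops (0.864%) ended on one. These intervals cover counting error and treat genes as independent, which neighbours in an array are not.

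Receptor genes were much shorter than the others, with a median body of 1.10 kb against 18.2 kb, so the shares were also set side by side within classes of length. Among genes of up to 2 kb, 11 of 92 receptors (12%, 6.81 to 20.2%) were at a listed end, against 31 of 68 other genes (45.6%, 34.3 to 57.3%). Among genes of 2 to 10 kb the counts were 7 of 56 receptors (12.5%, 6.19 to 23.6%) and 168 of 318 other genes (52.8%, 47.3 to 58.3%). Above 10 kb the intervals overlapped, with 9 of 20 receptors (45.0%, 25.8 to 65.8%) and 449 of 743 other genes (60.4%, 56.9 to 63.9%). With every gene reduced to its midpoint, 21 receptors (12.5%) and 409 other genes (36.2%) were at a listed end.

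**Figure D1:**
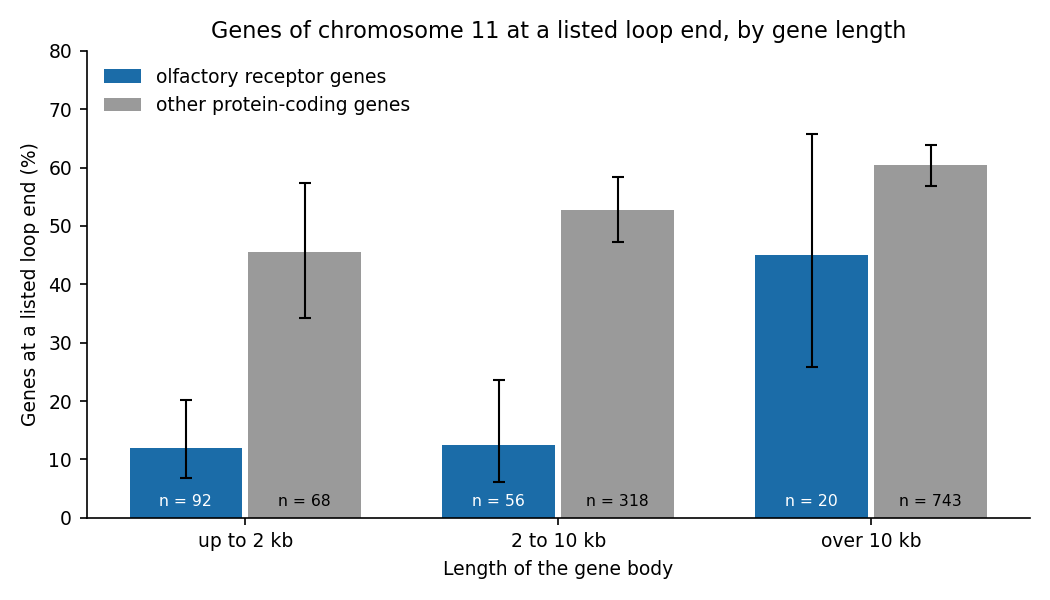
Share of genes of chromosome 11 at a listed loop end (%), by length of the gene body, for olfactory receptor genes (blue) and other protein-coding genes (grey). Bars are shares, error bars are 95% Wilson intervals for counting error, and n is the number of genes. The intervals stand apart for genes of up to 2 kb (12% of receptors, 45.6% of other genes) and of 2 to 10 kb (12.5 and 52.8%), and overlap above 10 kb.

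Other genes inside the receptor clusters had a low share as well. Among the 61 other protein-coding genes that lie inside the receptor clusters, 11 (18.0%, 10.4 to 29.5%) were at a listed end, an interval that holds the receptors' 16.1%, against 637 of 1068 other genes outside the clusters (59.6%, 56.7 to 62.5%). Listed positions were sparse across the clusters as a whole. The 8.79 Mb of the clusters held 478 listed positions, or 54.4 per Mb, against 236 per Mb on the rest of chromosome 11. The density was 14.7 per Mb in cluster 4, 58.8 in cluster 1, 72.1 in cluster 7, 76.3 in cluster 5 and 158 in cluster 2. In 10 windows of 1 Mb with 5 or more receptors the median was 81.5 listed positions (range 8 to 305), against 160 (range 0 to 2757) in 103 windows with other genes and no receptor, so the ranges of the windows overlapped.

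Of the olfactory receptors of other chromosomes, 35 of 219 (16.0%, 11.7 to 21.4%) were at a listed end. The clustered families of chromosome 11 chosen for comparison also had few members there. The MS4A genes, which encode membrane proteins, some of them of immune cells, had 2 of 16 (12.5%). These were MS4A6E with 6 loops and MS4A1, which encodes the B cell antigen CD20, with 2. The KRTAP5 genes, which encode hair keratin-associated proteins, had 2 of 11 (18.2%). The matrix metalloproteinase genes had 1 of 10, the enamel protease gene MMP20 with 65 loops. Of these 10, MMP26 lies inside cluster 1. A list of 8 TRIM genes in or near cluster 1, which include antiviral ubiquitin ligase genes, had 1, TRIM68 with 5. None of the 5 globin genes HBB, HBD, HBG1, HBG2 and HBE1, which lie within cluster 1, was at a listed end, and with 5 genes the Wilson interval reaches 43.4%. Families outside these lists were not counted. Among them, the neighbouring genes FADS1, FADS2 and FADS3 had 33, 27 and 22 listed loops.

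The genes that act with the receptors in olfactory neurons lie mostly outside the arrays. Of 13 such genes 10 (76.9%, 49.7 to 91.8%) were at a listed end, against 49.9% of all 19821 placed protein-coding genes on chromosomes with listed loops. Most were long, with 9 of the 11 over 10 kb at an end, against 52.4% of all 14257 genes of that length. The 49.9% lies just inside the interval, which 13 genes leave wide. For the 11 genes over 10 kb no interval was computed. They included ADCY3, the adenylyl cyclase that answers receptor activation (38 loops), GNAL, the olfactory G protein subunit (9 loops), ANO2, a calcium-activated chloride channel (27 loops), and EBF1 (53 loops) and LHX2 (26 loops), transcription factor genes. The cyclic nucleotide-gated channel subunit gene CNGA4, which lies in cluster 1, OMP, the olfactory marker protein gene, also on chromosome 11, and LDB1, the gene of an LHX2 cofactor, had none. In the authors' deposited table REEP1, a gene of receptor trafficking, had 3 gained loops of 21, and the channel subunit gene CNGA2 had 4 lost loops of 43.

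The 27 receptors at a listed end had 1 to 21 loops each, with a median of 4, against a median of 15 and a maximum of 519 at the 648 other genes. The other genes' median rose with length, from 7 up to 2 kb to 10 at 2 to 10 kb and 19 above 10 kb. That of the receptors was 4 in each of these classes. Other genes inside the receptor clusters had a median of 7. OR4C5 had 21 listed loops and OR5A2 had 18. They were followed by OR52K1 with 11 and OR52M1 with 10, by OR4C3, OR5A1 and OR8B4 with 7 each, and by OR51D1 and OR8B8 with 6 each. OR56A1 and OR8A1 had 5 each. A further 5 receptors had 4 loops (OR52K2, OR52I2, OR9G4, OR8B3 and OR8B12), 2 had 3 (OR4C11 and OR5B21), 4 had 2 (OR51E1, OR51L1, OR9G1 and OR10D3) and 5 had 1 (OR52I1, OR51E2, OR56A3, OR4C12 and OR5AK2). The other 141 placed receptors had none. The 130 loops are not independent, since they used 47 distinct positions on the receptors and fell into 28 groups when loops with both ends within 10 kb of each other were joined.

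**Figure D2:**
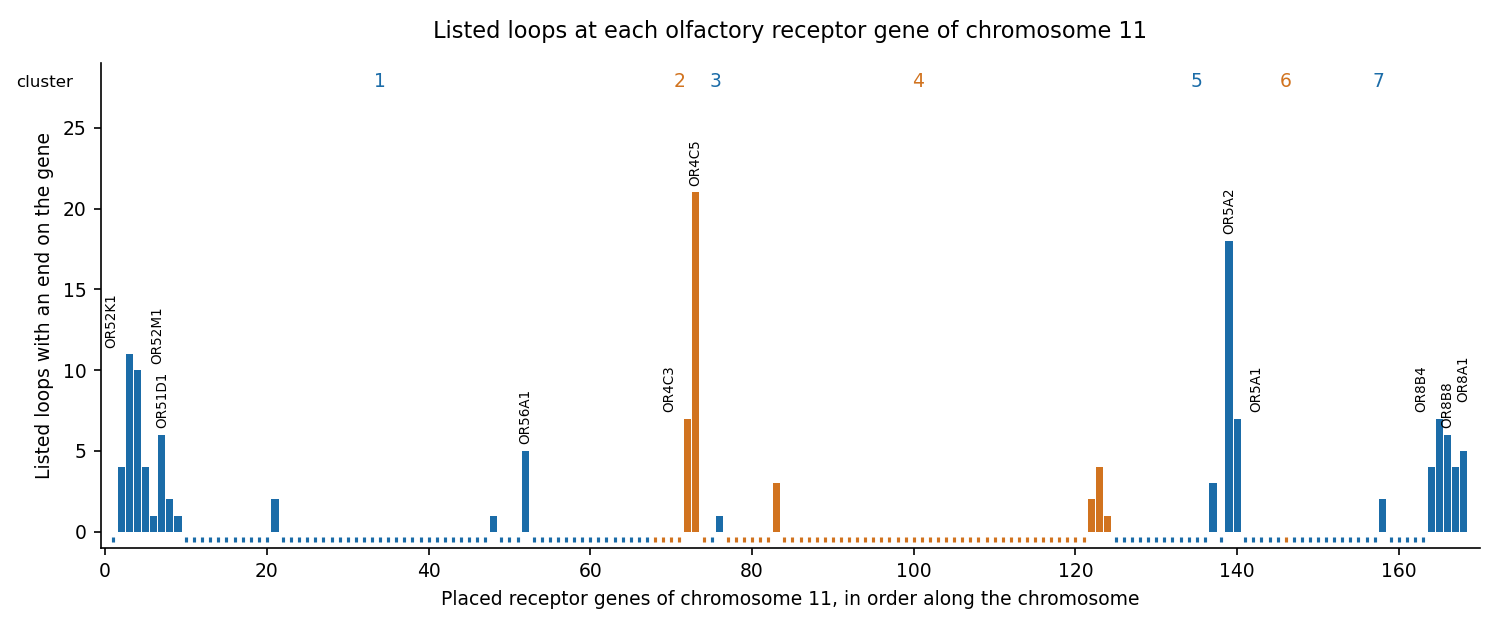
Number of listed loops with an end on each of the 168 placed receptor genes, in order along chromosome 11. Numbers and colours mark the 7 clusters, ticks below 0 are receptors without a listed loop, and receptors with 5 or more loops are named. The 27 receptors with loops sit alone or in groups, led by OR4C5 (21 loops) and OR5A2 (18), between long runs without any.

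Receptors with loops lay alone or in groups, and long runs of receptors between them had none. In cluster 1, 11 of 67 receptors (16.4%) were at a listed end, and 8 of these were consecutive genes near the left edge, from OR52K2 to OR51E2. The 26 consecutive receptors from OR52J3 to OR52E5 had no listed end. All 11 were class I receptors, of 55 (20.0%), and 0 of the 12 class II receptors in cluster 1 was at a listed end, for which the Wilson interval reaches 24.2%. In cluster 4, 4 of 48 receptors (8.33%) were at a listed end and 38 consecutive ones, from OR4P4 to OR5AR1, were not. In cluster 7 the counts were 6 of 22 (27.3%), in cluster 5 they were 3 of 21 (14.3%), in cluster 2 they were 2 of 7 (28.6%), and in cluster 3 OR4C12 was at an end with 1 loop. OR2AT4 had none. Over the chromosome 16 of 113 class II receptors (14.2%, 8.91 to 21.8%) were at a listed end, an interval that overlapped that of class I (11.6 to 32.4%).

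Some receptors with long gene bodies had no listed loop. OR51B5, whose annotated body of 165335 bp is the longest among the receptors, had no listed end, and the nearest lay 323 kb away. OR9Q1, with 157736 bp, had none within 120 kb. OR4C46, the first receptor of cluster 4, lay 956 kb from a listed end. Over all receptors the median distance to the nearest listed end was 77.4 kb, against 0 for the other genes. For the 61 other genes inside the receptor clusters it was 70.2 kb, close to that of the receptors. Among genes of up to 2 kb it was 89.2 kb for receptors and 3.90 kb for other genes.

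Loops at receptors mostly led to sites without a protein-coding gene. Of the 130 loops, 113 (86.9%, 80.1 to 91.7%) had no protein-coding gene at the other end, against 6633 of 12679 loops on other genes of chromosome 11 (52.3%, 51.4 to 53.2%). These intervals treat loops as independent, which neighbouring loops are not. The 113 include 29 loops from 5 OR52 genes to 6 positions left of cluster 1, and 7 from OR4C3. They were not set against loops of other genes inside the receptor clusters. Of the 130 loops, 9 (6.92%) had a gene that is no receptor at the other end, and 8 (6.15%) joined receptors to each other. Of the 8, 5 lay in cluster 7, where loops of OR8B3 and OR8B4 ended on OR8B12 and OR8A1. The other 3 joined OR51D1 to OR51L1, OR9G1 to OR9G4, and OR4C5 to OR4C12. Among genes that are no receptors, DTX4, which encodes a ubiquitin ligase of Notch signalling, shared 6 loops with OR5A1 and OR5A2. OR5B21 shared 2 loops with BTBD18, and 1 of these also lay on SELENOH and TMX2. The other loop led to CTNND1, which encodes the adhesion protein p120-catenin.

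In cluster 1 a fan of 29 loops led from OR52K2, OR52K1, OR52M1, OR52I2 and OR52I1 to 6 positions left of the cluster, between 4175868 and 4211867. These loops were 261 to 412 kb long. A second block held 8 loops of 337 to 383 kb, with right positions from 5008154 to 5016928. Of these, 6 had the left end on OR51D1, 2 of the 6 also on OR51E1, and 1 had it on OR51E2. OR51L1 was at the right end of 2. OR51E1 and OR51E2 are receptors also known from prostate tissue. OR56A1 was the left end of 5 loops of 327 to 337 kb, and 1 of these also lay on OR56A3, whose annotated body overlaps OR56A1.

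The loops at cluster 2 were the longest of chromosome 11. All 28 loops at OR4C3 and OR4C5 were 1614 to 1785 kb long and led to right positions between 49975317 and 50108013, within and beyond cluster 3. The loop from 48361044 to 49984137 ended on OR4C12. Chromosome 11 had 43 listed loops of at least 1500 kb, and all 43 had an end in cluster 2. The longest loop elsewhere on the chromosome was 1064 kb. The 28 loops used 3 left positions. OR4C12, at the other end of 1 of these loops, belongs to the same family as OR4C3 and OR4C5. OR4C13, the other receptor of cluster 3, had no listed end, the nearest lying 16.9 kb away. Whether reads matching several family members had a part in these loops was not tested.

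Loops at the other clusters were short by comparison. The 9 loops of cluster 4 were 27.1 to 143 kb long, those at OR4C11 being 42.3 to 50.8 kb. The 23 loops of cluster 7 were 119 to 171 kb long, 21 of them at OR8B3, OR8B4, OR8B8, OR8B12 and OR8A1. In cluster 5, the 25 loops at OR5A2 and OR5A1 were 149 to 276 kb long and the 3 at OR5B21 were 701 to 771 kb long. OR5A1 is the receptor for the violet odorant beta-ionone. Over all 130 loops the median length was 299 kb (order-statistic 95% interval 261 to 336 kb), against 228 kb (225 to 231 kb) for the 14914 other listed loops of chromosome 11. These intervals treat loops as independent and are too narrow, since the 130 loops form 28 joined groups. The quartiles were 157 and 406 kb at receptors, against 144 and 350 kb. Loops over 500 kb made up 31 of the 130 (23.8%), against 9.34% of the others, and loops under 100 kb made up 8 (6.15%), against 11.8%. The share over 500 kb turned round without the loops at OR4C3 and OR4C5, to 3 of 102 (2.94%). The median was 337 kb over the 42 loops at class I receptors and 172 kb over the 88 at class II receptors. Without the loops at OR4C3 and OR4C5 the median of all was 256 kb. Leaving out cluster 1 leaves the class II loops and their 172 kb.

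**Figure D3:**
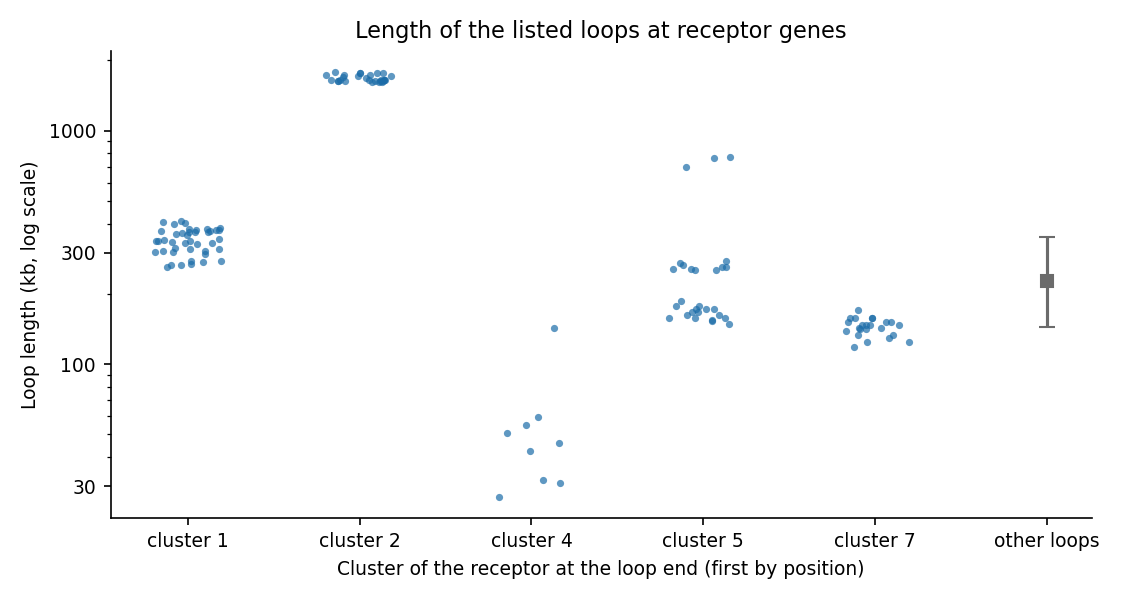
Length in kb (log scale) of each listed loop with an end on a receptor gene, by cluster, with the median and quartiles of the 14914 other listed loops of chromosome 11 at the right. Each point is 1 loop, and a loop on receptors of 2 clusters is drawn at the first. Lengths in clusters 1, 2 and 4 do not overlap, with 1614 to 1785 kb in cluster 2, 261 to 412 kb in cluster 1 and 27.1 to 143 kb in cluster 4.

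In the authors' deposited table all 130 loops at receptors carried the word not_conserved, and none carried conserved_gain or conserved_lost. This does not show that the loops were unchanged. In the authors' deposited table, 0 of 168 receptors were at a gained end, against 76 of 1129 other genes of chromosome 11 (6.73%), and 0 were at a lost end, against 4 (0.354%). The other genes' gained share moved with length, at 1.47% of 68 genes of up to 2 kb, 2.20% of 318 of 2 to 10 kb and 9.15% of 743 longer ones. Only genes with a listed loop could be counted as gained or lost. Of those, 0 of 27 receptors had a gained loop in the authors' deposited table (Wilson upper limit 12.5%), against 76 of 648 other genes (11.7%, 9.47 to 14.4%), and 0 of 27 receptors had a lost loop, against 4 of 648 (0.617%). The receptors' limit lies above both shares, so a difference was not detectable. The limit is 2.87% for 0 of 130 loops and 12.1% for 0 of the 28 groups of joined loops. Other listed loops of chromosome 11 were gained in 240 of 14914 cases (1.61%, 1.42 to 1.82%) and lost in 6 (0.0402%), in the authors' deposited table. At those rates 130 loops would hold 2.09 gained and 0.0523 lost ones, so neither rate was detectable at receptors with this number of loops, fewer still being independent. On other chromosomes 3 receptors were at a gained end in the authors' deposited table, OR4D2 (10 of 17 loops) and OR4D1 (3 of 5) on chromosome 17 and OR2AP1 (3 of 3) on chromosome 12, and 0 of 219 were at a lost end.

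Gained loops did reach into the clusters, between the receptors. In the authors' deposited table, 17 gained loops and 1 lost loop had a position inside a cluster, and the gained share of the 354 loops that did was 4.80% (3.02 to 7.56%), against 1.52% (1.33 to 1.73%) of the 14690 other loops. Of the 17, 13 formed a single region in cluster 1, and without these the share was 4 of 341 (1.17%, 0.457 to 2.98%). The 13 loops, of 585 to 618 kb, joined positions from 7084848 to 7113066 with positions from 7693764 to 7703273. Their right ends lay on OVCH2, a protease-related gene with 13 gained loops of 22, and 6 of them had the left end on the overlapping genes NLRP14, of the NLR family and expressed in the germ line, and RBMXL2, which encodes a testis RNA-binding protein. The nearest receptors were OR2D3, 163 kb to the left, and OR5P2, 92.7 kb to the right, and no receptor lay between the ends.

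In clusters 4, 5 and 6 receptors lay between the ends of gained loops, and in clusters 2, 3 and 7 none did. In the authors' deposited table a single gained loop of 837 kb joined 55949743 and 56786575 in cluster 4, with no protein-coding gene at either end and 28 receptors between them, from OR10AG1 to OR9G4. The left end lay 11 kb from OR10AG1 and the right end 32.9 kb from OR9G4. In cluster 5, 3 gained loops of 715 to 724 kb joined CTNND1 with LPXN, which encodes the adhesion adaptor leupaxin, and 13 receptors lay between the ends, from OR9Q1 to OR5B21. The nearest of these right ends was 16.3 kb from OR5B21. A gained loop of 287 kb from XRRA1 to SLCO2B1, an organic anion transporter gene, held OR2AT4 between its ends. These regions were named after their values were seen.

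Together 42 of 168 receptors (25%, 19.1 to 32.1%) lay inside at least 1 gained loop in the authors' deposited table, against 105 of 1129 other genes (9.30%, 7.74 to 11.1%). This count rested on 5 loops in 3 places. Without the single loop in cluster 4 it was 14 receptors (8.33%), with the other genes unchanged at 105. All 42 were class II receptors (37.2% of 113, 28.8 to 46.4%), and 0 of 55 class I receptors lay inside a gained loop (Wilson upper limit 6.53%). These intervals treat receptors as independent, which neighbours inside the same loop are not, and all 55 class I receptors lie in cluster 1. Receptors inside a listed loop of any class numbered 84 (50.0%, 42.5 to 57.5%), against 647 other genes (57.3%, 54.4 to 60.2%). A further 81 receptors were neither at an end of nor inside any listed loop, 39 of them in cluster 1, 17 in cluster 4 and 16 in cluster 7. OR52B4, at the left edge of cluster 1, lay inside 116 listed loops with none ending on it, and OR2AT4 lay inside 26.

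The lost loop of the region lay beside OR52M1. In the authors' deposited table it ran from 4175868 to 4542300 (366 kb), and its right end stopped 2.89 kb short of OR52M1. It held OR52B4, OR52K2 and OR52K1 between its ends, so 3 of 168 receptors (1.79%) lay inside a lost loop, against 9 of 1129 other genes (0.797%). Most of the 9 lay inside this same loop, namely TRIM21, SSU72L1, SSU72L2, SSU72L3, SSU72L4 and SSU72L5. Both shares thus rested mainly on 1 loop. The other 4 listed loops with that left position were classed as not conserved. Those ending at 4523147 and 4528135 stopped before OR52M1, and those ending at 4546094 and 4551067 lay on it. With gene bodies widened by 5 kb on each side, this loop counted as lost at OR52M1. In cluster 5, in the authors' deposited table, 6 loops shared the left position 57809951. The one to 58510752, on OR5B21, and those to 58515533, 58520028 and 58524416 were classed as not conserved, and those to 58529404 and 58534110 were gained. Neighbouring positions therefore carried different class words, and no strengths are given from which the size of that difference could be read.

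**Figure D4:**
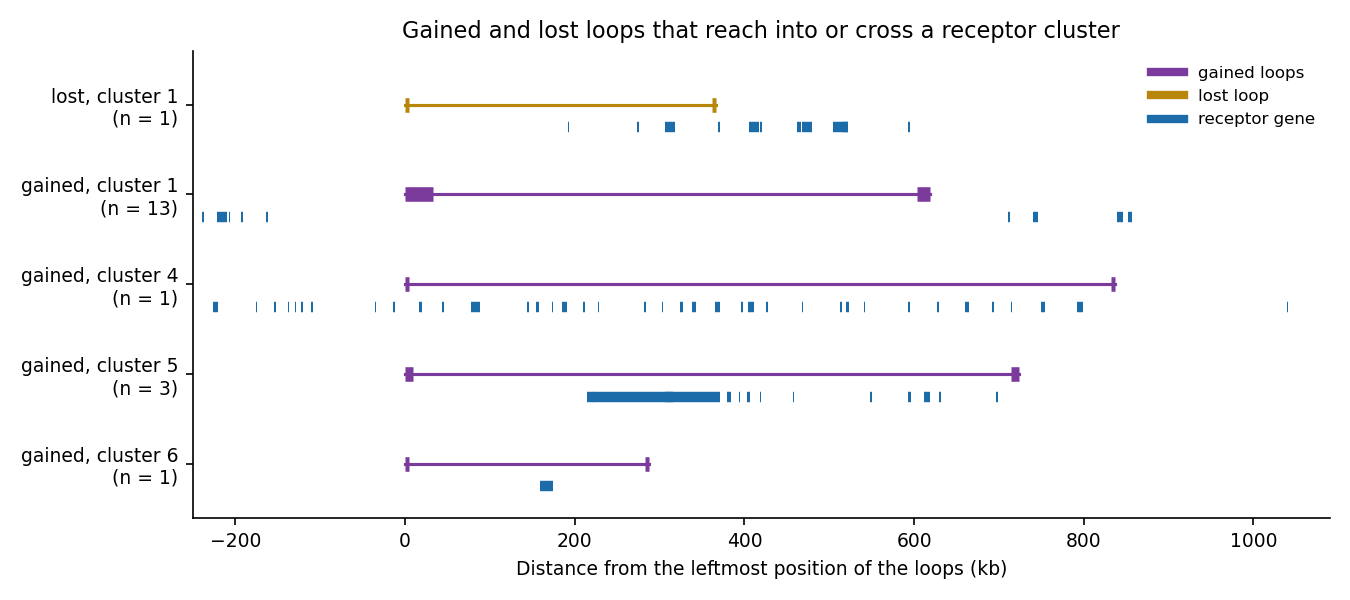
Gained (purple) and lost (gold) loops that reach into or cross a receptor cluster, in kb from the leftmost position of each group. Thick ends span the loop ends, the thin line joins them, n is the number of loops, and blue marks below are receptor genes (widened where too short to see). No blue mark lies under a thick end, and 28 receptors in cluster 4, 13 in cluster 5 and 1 in cluster 6 lie between the ends of gained loops.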

How the data were processed

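Hi-C libraries of ORC2 deletion, ORC2 rescue and wild-type HCT116 p53-/- cells (1 each) stand behind a list of 279669 loops. The loop positions and class words were deposited by the authors in hg38, as the list's name states. Bowtie, hg19 and hg38 are named without roles in the submitters' processing notes. No loop caller or threshold is given in the sources used here. From it 49 rows without a class word and 2 repeated rows were dropped, which left 279618 loops, 15044 of them on chromosome 11. The 6 columns of per-sample values in the compartment table match no sample label and were not used.

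Genes and promoter windows came from RefSeq (GRCh38.p14). Overlaps, Wilson intervals and medians were computed with Python 3.11.15, pandas 2.3.3 and SciPy 1.17.1. The overlap step, tested on simulated data over 1297 genes, sorted all 1297 rightly. Named genes were receptors with a gained or lost end, those with most loops, the first and last of each cluster, and fixed comparison lists. All receptors at a listed end were then named, which goes past that rule. The members and lists were chosen with earlier results of these data known. Alternatives varied the end width, the gene interval, short loops and the clusters used.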

Additional observations from a re-analysis of the deposited data

How the results depend on the processing

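Under 39 of 49 alternatives a count stayed within 1.5 times its reported value, or the median length inside 261 to 336 kb, and under 10 it did not. The interval of 261 to 336 kb treats loops as independent, which neighbouring loops are not. Counts of receptors at a listed end ran from 21 to 29 of 168, and fell to 16 of 101 receptors (15.8%) without cluster 1, by construction. The loops on receptors numbered 85 with 2 kb ends, 67 at gene midpoints and 197 with bodies widened by 5 kb, since a narrower or wider target catches fewer or more ends. Other genes at a listed end numbered 409 at gene midpoints. Gained loops on receptors stayed at 0 under all 8 alternatives, and lost loops at 0 under 7 of 8, with 1 lost loop (at OR52M1) when bodies were widened. Only 10 kb ends, ends on both sides and widened bodies could have raised a count of 0. Under the alternatives that narrowed the target, left out loops or receptors, or joined loops, 0 was fixed in advance. Those fixed values are among the 39. The median length was 337 kb at gene midpoints, 172 kb without cluster 1 and, in an alternative chosen after seeing the data, 256 kb without the loops at OR4C3 and OR4C5. Leaving out the gained loop that held most receptors, also chosen after seeing the data, left 14 receptors inside a gained loop. With no contact counts in the list, depth could not be set beside any loop, and the 130 loops, which form 28 joined groups, leave gained shares of up to 2.87% of loops or 12.1% of groups unseen. Comparisons of compartment scores were not run because the columns match no label. No paired analysis was possible because the 3 groups hold a single library each.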
